A study of Mus musculus with 12 samples.

Results

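Chromatin accessibility at the gene of PU.1 (Spi1) and at 8 genes of the colony-stimulating factor (CSF) system was examined in graft-derived brain macrophages and host microglia of bone marrow (BM) chimeric mice. The genes were Spi1, Csf1r, Csf1, Il34, Csf2ra, Csf2rb, Csf2rb2, Csf3r and Flt3, and every peak that the deposited annotation gave to 1 of them was taken. They held 43 of 60288 peaks in the table of untreated mice and 31 of 54953 in the table of LPS-treated mice, together 74 of 115241.

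Peaks came from ATAC-seq, which reads open DNA from the places where a transposase could insert adapters. All mice were wild type (WT) C57BL/6J per the labels and had been lethally irradiated (950 cGy), and the study describes WT recipients of 6 weeks given congenic WT BM carrying CD45.1. Libraries of untreated chimeras carry the numbers 4, 5 and 6. LPS-treated chimeras, with libraries numbered 1, 2 and 3, received 2.5 mg/kg lipopolysaccharide (LPS), a bacterial endotoxin, and were killed 12 h later. The labels give 3.5 or 9 months since transplantation without tying an interval to a mouse, and the study's text gives 9 months. From brains, Ly6C/G-negative CD11b+ CD45lo cells were sorted into CD45.1 cells, derived from the graft, and CD45.2 cells, the host microglia. Each of the 4 groups held 3 libraries. The labels' design text says that both populations came from the same animal. Both populations share these numbers, but the sources used here do not say that a number is 1 animal. The main tests leave such pairing out, so p-values measure the spread between libraries. Only the CD45.2 cells had been irradiated with the host, so origin, irradiation and CD45 allele cannot be told apart.

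PU.1 is an ETS-family transcription factor without which macrophages and microglia do not form, and it binds regulatory DNA of many myeloid genes, Csf1r among them. CSF1R, the receptor on which microglia depend for survival, has the ligands CSF1 and IL-34. CSF2RA pairs with the common beta chain CSF2RB to bind GM-CSF, Csf2rb2 encodes a mouse beta chain specific to the IL-3 receptor, CSF3R binds G-CSF, and FLT3 is a receptor of hematopoietic progenitors and dendritic cells.

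The sequences of 4 of the 6 peaks that differed between CD45.1 and CD45.2 cells of untreated mice are given first, as the DNA in which those differences were measured. Peaks are named by gene and by the distance of the peak centre from the transcription start site (TSS) in bases, negative when upstream. Each sequence is the 200 bases around the peak centre, forward strand, mouse build mm9, read from the reference genome. Capitals mark a match to PU.1 (GAGGAAGT), AP-1 (TGANTCA), CEBP (TTGCNNAA) or RUNX (TGTGGT) motifs, searched on both strands. The following pair, upstream of Csf1, was more open in CD45.2 cells. Csf1 -23001 (chr3:107586289-107586488, intergenic) held a CEBP match on the reverse strand from base 140 and Csf1 -55794 (chr3:107619082-107619281, intergenic) held none.
Csf1 -23001: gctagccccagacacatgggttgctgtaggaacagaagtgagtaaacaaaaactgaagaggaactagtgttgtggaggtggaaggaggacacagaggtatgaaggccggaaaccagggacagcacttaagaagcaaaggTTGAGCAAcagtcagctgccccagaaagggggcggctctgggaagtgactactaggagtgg
Csf1 -55794: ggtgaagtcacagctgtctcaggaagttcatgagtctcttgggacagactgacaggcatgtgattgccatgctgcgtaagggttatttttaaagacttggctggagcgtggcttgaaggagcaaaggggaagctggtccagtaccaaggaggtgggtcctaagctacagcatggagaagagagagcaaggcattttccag

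The following pair, at Flt3, differed in opposite directions. Flt3 +11280 (chr5:148200686-148200885, intron 1 of 23), more open in CD45.1 cells, held a RUNX match on the reverse strand from base 115. Flt3 -8433 (chr5:148220399-148220598, intergenic), more open in CD45.2 cells, held an AP-1 match on the forward strand from base 74. The pseudogene Gm6054 starts 13 bases beyond the latter peak, and 52.6% of the bases of that peak lie in exact 36-base stretches found again near another pseudogene, Gm5612, so its tags are uncertain in origin.
Flt3 +11280: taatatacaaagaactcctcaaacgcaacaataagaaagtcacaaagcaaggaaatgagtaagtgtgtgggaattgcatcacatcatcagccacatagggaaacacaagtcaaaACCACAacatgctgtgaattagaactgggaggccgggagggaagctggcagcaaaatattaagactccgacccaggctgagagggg
Flt3 -8433: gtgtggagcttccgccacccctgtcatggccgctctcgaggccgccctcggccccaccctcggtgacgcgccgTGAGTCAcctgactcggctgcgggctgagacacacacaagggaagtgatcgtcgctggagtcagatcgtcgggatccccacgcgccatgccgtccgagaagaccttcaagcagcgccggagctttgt

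Among the 43 peaks of untreated mice, a match was found to the PU.1 motif in 6 (14%) against 9.57%, the AP-1 motif in 4 (9.3%) against 8.16%, the CEBP motif in 9 (20.9%) against 9.88% and the RUNX motif in 9 (20.9%) against 15.9% of all tested peaks in windows of the same length. Among the 30 tested peaks of LPS-treated mice, a match was found to the PU.1 motif in 6 (20%) against 8.97%, the AP-1 motif in 4 (13.3%) against 13.7%, the CEBP motif in 7 (23.3%) against 12.3% and the RUNX motif in 9 (30%) against 16.4%. These shares are descriptive, and a match is not shown to be a binding site.

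The libraries held 8392877.5 to 9107770 tags in untreated and 2966364 to 6556594.5 tags in LPS-treated mice. Each mate of a sequenced fragment was counted as 0.5 tags by the authors. Normalized tags are these counts divided by a size factor of each library from DESeq2. The share of tags in peaks was 26.3% to 39%, except for 18.4% in CD45.2 cells of replicate 4. All 8 microglia markers had peaks, and 2 were higher in CD45.2 cells of untreated mice, beside 7.46% of all genes. Of these 2, Sall1, a transcription factor of microglia, had 111 ± 82.4 tags in CD45.1 cells against 1042 ± 65.2 in CD45.2 cells (SD, n = 3). Some markers of cells outside the gate also differed, beside 7.35% of all genes higher in CD45.1 and 7.46% higher in CD45.2 cells. Of these markers, 4 of 6 for lymphocytes and 4 of 8 for monocytes and neutrophils had no peak in untreated mice. Both tested lymphocyte markers were higher in CD45.1 cells, with summed tags of 196 to 231 against 90.7 to 101. Higher in CD45.2 cells were 3 of 4 neuron markers (79.7 to 89.9 against 219 to 246), 2 of 4 astrocyte, 1 of 3 oligodendrocyte, 1 of 4 endothelium and 1 of 4 monocyte and neutrophil markers, but 0 of 3 dendritic cell markers (DESeq2, 0 at an unadjusted p under 0.05, 0 with edgeR). After LPS, 1 of 2 tested lymphocyte markers was higher in CD45.1 cells, beside 4.08% of all genes. Higher in CD45.2 cells were 2 of 5 neuron and 1 of 2 oligodendrocyte markers, beside 2.98% of all genes. The part of such cells in the results below was not tested.

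Peaks were found at 8 of the 9 genes. In untreated mice Csf2ra had 8 peaks, Csf1r and Csf3r 7 each, Csf1 and Flt3 6 each, Spi1 5, Csf2rb 3 and Csf2rb2 1. After LPS, Csf1 had 7, Csf3r 5, Spi1, Csf1r, Csf2ra and Flt3 4 each, Csf2rb 2 and Csf2rb2 1. Of the 43 peaks in untreated mice, 19 were intergenic, 17 intronic, 6 at a promoter and 1 in a 5′ UTR. The intronic peaks include Csf1r -28257, whose intron belongs to Pdgfrb. Il34, which neurons and keratinocytes are known to express, had no peak over its body (chr8:113265729-113329824, mm9) in any of the 12 libraries, and the nearest peak, at Mtss1l, lay 20116 bases away. Of the 43 peaks, 22 overlapped a peak called separately in each of the 6 libraries and 7 overlapped a peak of 1 library, beside 46% and 8.82% of all peaks. After LPS these counts were 12 and 4 of 31, beside 32.4% and 22.8%.

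**Figure D1:**
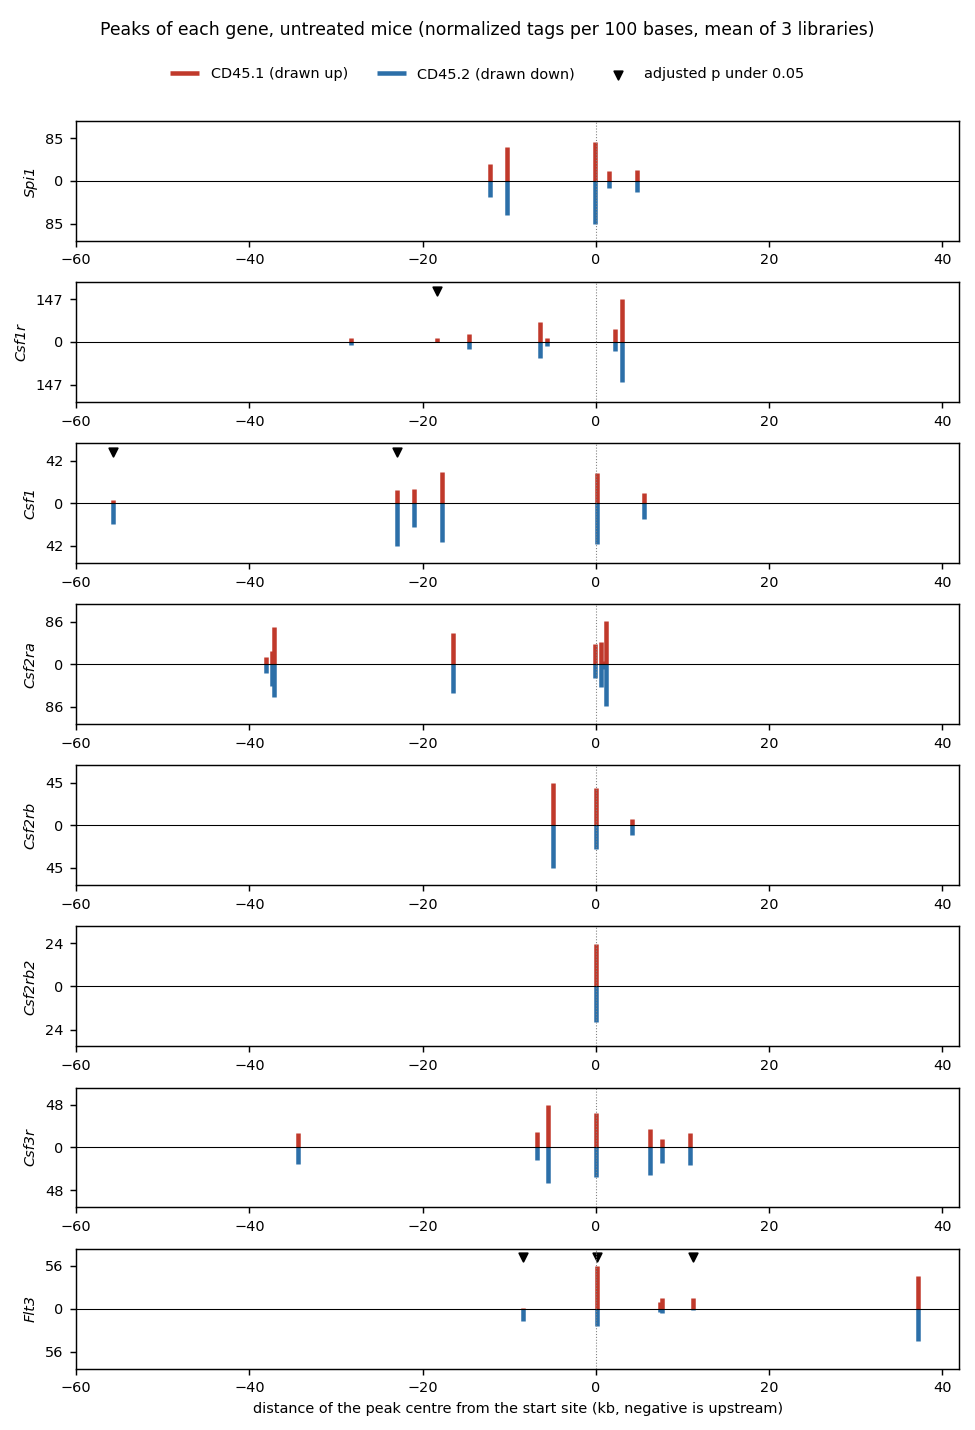
Peaks of each gene in untreated mice by distance from the TSS (kb), with mean normalized tags per 100 bases of peak (n = 3) drawn upward for CD45.1 (red) and downward for CD45.2 cells (blue) and a triangle at peaks with an adjusted p under 0.05. Spi1 is near symmetric, whereas Csf1 -23001 reaches further down and the Flt3 promoter further up.

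In untreated mice, 3 of 43 peaks were more open in CD45.1 cells (Flt3 +100, Flt3 +11280 and Csf1r -18382) and 3 in CD45.2 cells (Csf1 -23001, Csf1 -55794 and Flt3 -8433), with an adjusted p under 0.05 (DESeq2). Over all 59170 peaks tested, 8.54% and 6.32% passed in these directions, so the shares at these genes were near the background. At an adjusted p under 0.01 and over 4-fold, 2 passed in each direction (Flt3 +11280 and Csf1r -18382, and Csf1 -55794 and Flt3 -8433), against 3.78% and 2.65% of all. Each of these peaks overlapped separately called peaks of the higher population only. Each thus entered the peak set through that population, which favours a difference. No library of one population reached the range of the other for 7 peaks higher in CD45.1 and 9 higher in CD45.2 cells, against 17.8% and 17.7% of all. The median log2 fold change (CD45.1 over CD45.2 throughout) was -0.003, beside 0.00084 over all peaks. In such bulk libraries, fewer cells with an open site and less opening per cell cannot be told apart.

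**Figure D2:**
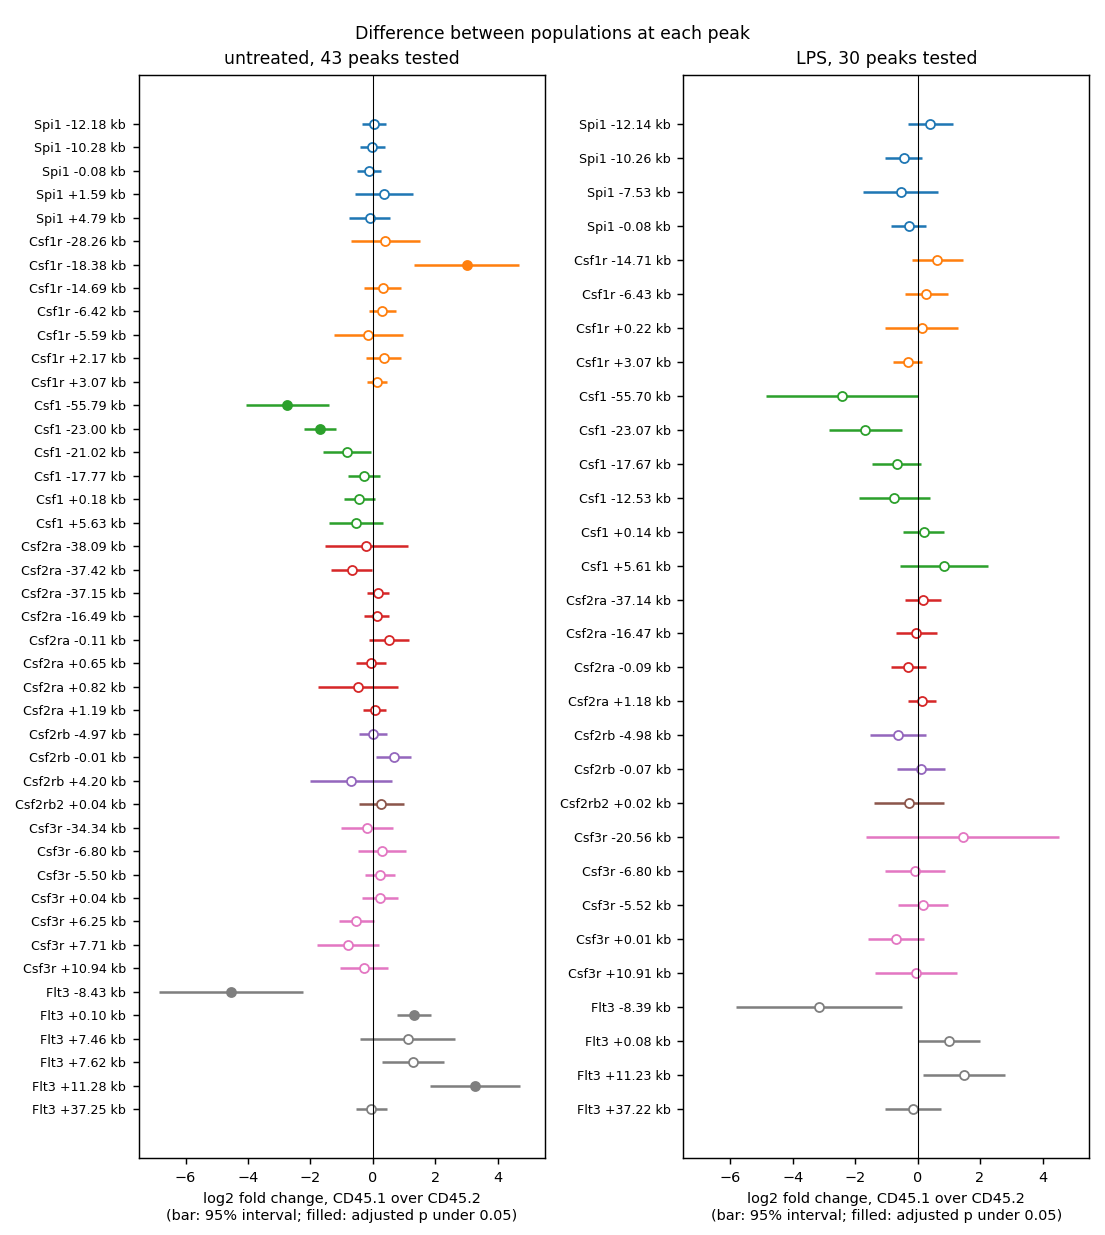
Log2 fold change of CD45.1 over CD45.2 cells with 95% interval for each tested peak, 43 in untreated and 30 in LPS-treated mice, filled where the adjusted p is under 0.05. The 6 filled points all belong to untreated mice, and the Spi1 points there lie between -0.12 and 0.35.

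Spi1, the gene of PU.1, showed no detectable difference between graft-derived cells and host microglia at any of its 5 peaks in untreated mice. The promoter peak Spi1 -78 (chr2:90936808-90936945) held 125, 92.6 and 106 normalized tags in CD45.1 cells of replicates 4, 5 and 6 and 116, 120.4 and 117 in CD45.2 cells of the same numbers. The groups overlapped (log2 fold change -0.12, 95% interval -0.49 to 0.24, adjusted p = 0.804, DESeq2). The upstream peaks Spi1 -10277 and Spi1 -12180, inside the gene as GENCODE spans it, also overlapped, with log2 fold changes of -0.02 (95% interval -0.41 to 0.37) and 0.04 (95% interval -0.35 to 0.43). The smallest adjusted p of the 5 peaks was 0.776 (DESeq2). Summed over its peaks, Spi1 had 360.1 ± 11.9 normalized tags in graft-derived CD45.1 cells against 372 ± 38.7 in CD45.2 cells (SD, n = 3), with a log2 fold change of -0.05 (95% interval -0.29 to 0.19).

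Csf1r was open in both populations. Its strongest peak, Csf1r +3068 in intron 2 of 21 (chr18:61268236-61268352), the intron known for a macrophage enhancer of this gene, had the highest mean of the 43 peaks, 167 normalized tags. It held normalized tags of 170.2, 179.8 and 166 in CD45.1 and 192, 142 and 149 in CD45.2 libraries. These overlapped (log2 fold change 0.12, 95% interval -0.2 to 0.44, adjusted p = 0.786, DESeq2). Csf1r +2175, in the same intron, gave 0.35 (95% interval -0.22 to 0.91). The intergenic Csf1r -6420 held normalized tags of 77, 86.3 and 81.7 in CD45.1 and 68.8, 60.8 and 69.8 in CD45.2 libraries, which did not overlap but did not pass (log2 fold change 0.3, 95% interval -0.14 to 0.74, adjusted p = 0.481, DESeq2).

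Of the 7 Csf1r peaks, 1 weak distal site passed. Csf1r -18382 (chr18:61246795-61246893, intergenic) held normalized tags of 11.2, 16 and 12 in CD45.1 and 2.46, 0.774 and 1.62 in CD45.2 libraries, all CD45.1 libraries being higher. Peaks had been called there, from the same tags, in 2 CD45.1 and 0 CD45.2 libraries. The log2 fold change was 3.00 ± 0.86 (SE, adjusted p = 0.00567, DESeq2), from 40.5 raw tags against 4.5, a ratio of 10.2 after scaling with an exact 95% counting interval of 3.67 to 39.1; such intervals cover counting error only. The call was lost without CD45.1 replicate 5 (adjusted p = 0.0576), CD45.2 replicate 5 (0.0974) or CD45.2 replicate 6 (0.0587). The 7 peaks include Csf1r -28257, which lies in an intron of the gene Pdgfrb. Summed over 7 peaks, Csf1r had 385 ± 15.6 normalized tags in graft-derived CD45.1 cells against 330.3 ± 8.57 in CD45.2 cells (SD, n = 3). These did not overlap, but the log2 fold change of 0.23 (95% interval -0.0004 to 0.45) did not pass over all genes (adjusted p = 0.216, DESeq2).

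Csf1, the ligand gene, was more open in host microglia at 2 of its 6 peaks. Csf1 -23001, shown above, held 31.2, 37 and 31 normalized tags in CD45.1 cells of replicates 4, 5 and 6 and 127, 78.6 and 115 in CD45.2 cells of the same numbers. Every CD45.2 library was above every CD45.1 library, by 3.21-fold (log2 fold change -1.68 ± 0.26, SE, adjusted p = 1.40e-08, DESeq2). Csf1 -55794 held normalized tags of 4.2, 3.65 and 1.09 in CD45.1 and 21.3, 22.1 and 15.4 in CD45.2 libraries. Peaks had been called there in 3 CD45.2 and 0 CD45.1 libraries, from the same tags, so the calls are not separate support. The groups were again apart, by 6.69-fold (-2.74 ± 0.68, SE, adjusted p = 8.90e-04, DESeq2).

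The remaining Csf1 peaks had negative estimates that did not pass. Csf1 +183 in exon 1 (chr3:107563118-107563291, 5′ UTR) held normalized tags of 38.7, 57 and 60.4 in CD45.1 and 77, 61.5 and 73.8 in CD45.2 libraries (log2 fold change -0.43, 95% interval -0.93 to 0.06, adjusted p = 0.31, DESeq2). Csf1 -21017 gave -0.83 (adjusted p = 0.166), Csf1 +5630 -0.54 and Csf1 -17768 -0.28. Summed over 6 peaks, Csf1 had 168 ± 15.4 normalized tags in graft-derived CD45.1 cells against 313 ± 16.5 in CD45.2 cells (SD, n = 3), with a log2 fold change of -0.89 ± 0.14 (SE, adjusted p = 5.62e-09, DESeq2). Of 16174 genes, 7.46% were higher in CD45.2 and 7.35% in CD45.1 cells. Scaled by total tags, the Csf1 difference was -0.85 and did not pass (adjusted p = 0.214).

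Flt3 differed in both directions along its locus. The promoter peak Flt3 +100 (chr5:148211899-148212031) held 79.3, 62.1 and 81.1 normalized tags in CD45.1 cells of replicates 4, 5 and 6 and 35.2, 29 and 26.4 in CD45.2 cells of the same numbers. All CD45.1 libraries were higher, by 2.48-fold (log2 fold change 1.31 ± 0.28, SE, adjusted p = 6.83e-05, DESeq2). This promoter peak also lies in Gm17398, annotated as a long noncoding RNA gene, so it cannot be given to Flt3 alone. In intron 1, Flt3 +11280 held normalized tags of 20.5, 12.8 and 38.1 in CD45.1 and 0, 1.94 and 5.27 in CD45.2 libraries. Peaks were called in 3 CD45.1 and 0 CD45.2 libraries, again from the same tags. The difference at Flt3 +11280 was 9.61-fold (95% interval 3.55 to 26, adjusted p = 1.80e-04, DESeq2), or 3.26 on the log2 scale, which became 4.54 without CD45.2 replicate 6. Flt3 +7621, in the same intron, held normalized tags of 20.1, 16.4 and 32.1 in CD45.1 and 4.92, 14.3 and 8.52 in CD45.2 libraries and missed the threshold (log2 fold change 1.28, adjusted p = 0.0724, DESeq2).

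In the other direction was Flt3 -8433, part of which is found again near a pseudogene, as given above. It held normalized tags of 0, 1.83 and 0 in CD45.1 and 19.7, 11.6 and 14.6 in CD45.2 libraries, with peaks called from the same tags in 3 CD45.2 and 0 CD45.1 libraries. It rested on 45 raw tags against 2, a ratio of 22.2 after scaling with an exact 95% counting interval of 5.79 to 188 (fitted log2 fold change -4.54 ± 1.17, SE, adjusted p = 0.00158, DESeq2). That value became -3.93 without CD45.1 replicate 4 and -6.34 without CD45.1 replicate 5. The strongest Flt3 peak, Flt3 +37248 in intron 9 of 23 (chr5:148174734-148174901), held normalized tags of 49.4, 77.1 and 86.6 in CD45.1 and 50.8, 83.2 and 80.7 in CD45.2 libraries and overlapped (log2 fold change -0.05, 95% interval -0.56 to 0.46, adjusted p = 0.953, DESeq2). Summed over 6 peaks, Flt3 had 199.8 ± 37.3 normalized tags in graft-derived CD45.1 cells against 135 ± 18.9 in CD45.2 cells (SD, n = 3), with a log2 fold change of 0.54 ± 0.18 (SE, adjusted p = 0.0169, DESeq2). This call was lost without CD45.1 replicate 6 or CD45.2 replicate 4, 5 or 6 (0.38 to 0.6), and with scaling by total tags (0.53). The sum includes the Flt3 peaks that passed in the same libraries, Flt3 -8433 among them, so it is not separate support.

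None of the peaks of the GM-CSF, IL-3 and G-CSF receptor genes passed in untreated mice (8 of Csf2ra, 3 of Csf2rb, 1 of Csf2rb2 and 7 of Csf3r, DESeq2), with 2 at an unadjusted p under 0.05, which passed with edgeR. Of these, Csf2rb -8 at the promoter (chr15:78156340-78156484) held normalized tags of 68.1, 48.4 and 55 in CD45.1 and 30.3, 39.1 and 38.1 in CD45.2 libraries (adjusted p = 0.112 with DESeq2 and 0.0238 with edgeR). The other, Csf2ra -37419, lies in a B2 SINE repeat and gave -0.69 (adjusted p = 0.179, DESeq2). The strongest Csf2ra peak, Csf2ra +1185 in an intron (chr19:61303060-61303212), held normalized tags of 131, 129 and 137 in CD45.1 and 159.8, 106 and 125 in CD45.2 libraries and overlapped (log2 fold change 0.05, 95% interval -0.31 to 0.41, adjusted p = 0.932, DESeq2). The promoter peak Csf2ra -108 (chr19:61304377-61304481) held normalized tags of 38.7, 31.9 and 59.4 in CD45.1 and 31.1, 30.2 and 29.2 in CD45.2 libraries, which did not overlap and did not pass (log2 fold change 0.52, 95% interval -0.13 to 1.16, adjusted p = 0.371, DESeq2).

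Csf2rb and Csf2rb2, which are near-identical in part, could not be fully separated. Of the bases of the promoter peak Csf2rb2 +40 (chr15:78136049-78136173), 44.8% lie in 36-base stretches found again in Csf2rb, and of those of Csf2rb -8, 38.6% are found again near Csf2rb2. Csf2rb2 +40 held normalized tags of 27.5, 22.8 and 38.7 in CD45.1 and 20.5, 27.1 and 26 in CD45.2 libraries, which overlapped (log2 fold change 0.27, 95% interval -0.45 to 0.99, adjusted p = 0.773, DESeq2). Csf2rb -4972, the strongest Csf2rb peak and free of such copies, held normalized tags of 83.5, 65.3 and 89.3 in CD45.1 and 84.4, 86.7 and 68.6 in CD45.2 libraries (log2 fold change -0.003, 95% interval -0.44 to 0.44, adjusted p = 0.997, DESeq2). At Csf3r, the promoter peak Csf3r +35 (chr4:125701880-125701996) held normalized tags of 49.4, 43.4 and 41.9 in CD45.1 and 42.6, 36 and 38.1 in CD45.2 libraries (log2 fold change 0.23, 95% interval -0.34 to 0.8, adjusted p = 0.752, DESeq2), and the strongest, Csf3r -5496, held normalized tags of 74.2, 65.3 and 92 in CD45.1 and 50.8, 76.2 and 66.9 in CD45.2 libraries. Gene sums of Csf2ra, Csf2rb, Csf2rb2 and Csf3r gave log2 fold changes of 0.02, 0.15, 0.24 and -0.09, with adjusted p of 0.731 to 0.955 (DESeq2).

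Per length, levels in CD45.1 cells of untreated mice, in normalized tags per 100 bases of peak (mean ± SD, n = 3), ran from high to low as Csf2ra (52.5 ± 3.12), Csf1r (48.1 ± 1.94), Spi1 (41.9 ± 1.39), Csf2rb (34 ± 4.18), Csf3r (24.2 ± 1.79), Flt3 (23.8 ± 4.44), Csf2rb2 (23.5 ± 5.86) and Csf1 (17.8 ± 1.63). Neighbours whose libraries overlapped were Csf2ra and Csf1r at the top, and Csf3r and Flt3, Flt3 and Csf2rb2, and Csf2rb2 and Csf1 at the bottom. In CD45.2 cells the order was Csf2ra (51.8 ± 1.06), Spi1 (43.2 ± 4.5), Csf1r (41.3 ± 1.07), Csf1 (33.1 ± 1.74), Csf2rb (30.4 ± 2.51), Csf3r (25.7 ± 2.25), Csf2rb2 (19.9 ± 3.26) and Flt3 (16.1 ± 2.25). There, libraries of Spi1 and Csf1r overlapped, as did those of Csf1 and Csf2rb and of Csf2rb2 and Flt3. Csf1 had the lowest mean of the 8 genes in CD45.1 cells and the fourth mean in CD45.2 cells.

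**Figure D3:**
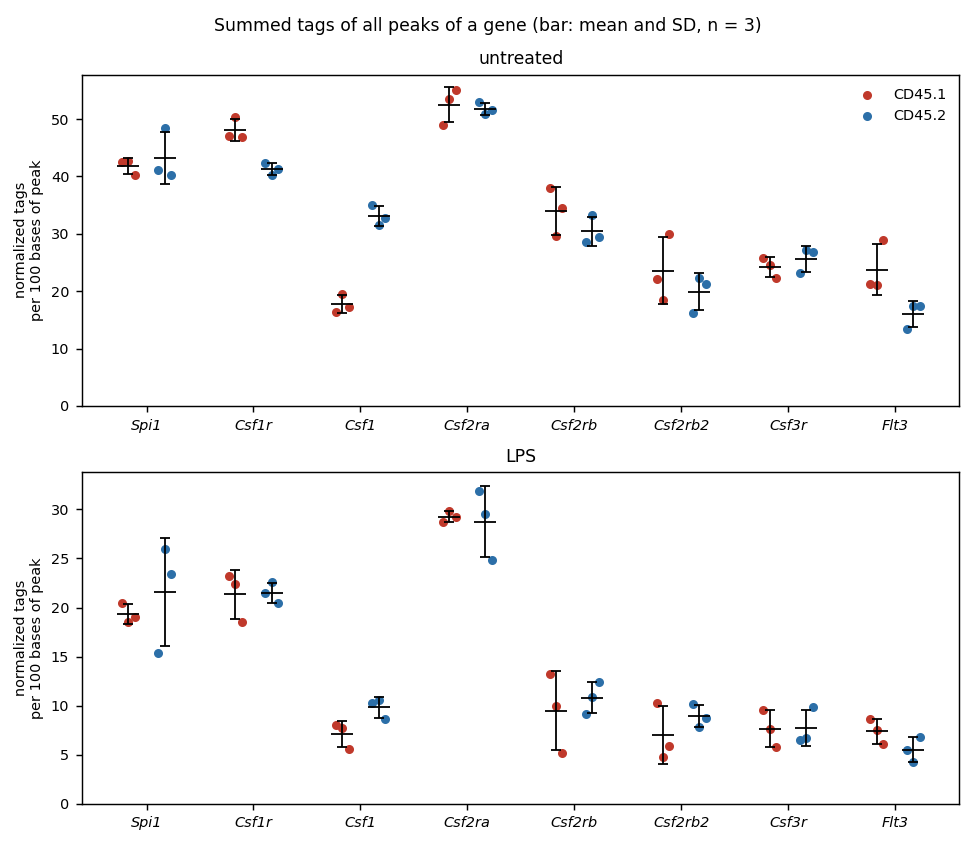
Normalized tags per 100 bases of peak, summed over the peaks of each gene, for every library (points) with mean and SD (n = 3), in untreated and in LPS-treated mice. Csf1 separates the populations in untreated mice, with means of 17.8 and 33.1, and the tables were scaled separately, so levels are not comparable between them.

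After LPS, 0 of 30 tested peaks passed between the populations (DESeq2), with 4 at an unadjusted p under 0.05 and 2 passing with edgeR. Csf1 -55547, with tags in CD45.2 libraries only, was too low to be tested. Of all 49180 peaks, 4.08% were higher in CD45.1 and 2.38% in CD45.2 cells, and 1.78% and 1.19% at an adjusted p under 0.01 and over 4-fold, where these genes also had 0. The groups were without overlap for 3 peaks higher in CD45.1 and 4 higher in CD45.2 cells, against 14.1% and 13% of all. The median log2 fold change was -0.07, beside -0.0077. Of 8 gene sums, 0 passed with DESeq2 or edgeR and Csf1 alone had an unadjusted p under 0.05, against 4.08% and 2.98% of 15722 genes higher in CD45.1 and CD45.2 cells.

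Of the 6 peaks that had differed in untreated mice, Csf1 -23001, Flt3 +100, Flt3 +11280 and Flt3 -8433 had a matched peak after LPS, and the estimates had the same sign there. Csf1 -55794 and Csf1r -18382 had none, and the nearest peak to the former, Csf1 -55701, gave -2.42 (21 raw tags against 3, a ratio of 6.3 after scaling with an exact 95% counting interval of 1.88 to 33; adjusted p = 0.324, DESeq2). Csf1 -23065, the counterpart of Csf1 -23001, held 10.5, 7.18 and 2.36 normalized tags in CD45.1 cells of replicates 1, 2 and 3 and 30.7, 25.3 and 10.4 in CD45.2 cells of the same numbers, which overlapped narrowly. The log2 fold change was -1.68 ± 0.59 (SE, adjusted p = 0.0658 with DESeq2), and it passed with edgeR. Flt3 +80, at the promoter, held normalized tags of 23.9, 21.5 and 12.7 in CD45.1 and 12.3, 6.98 and 10.4 in CD45.2 libraries (log2 fold change 1.00, 95% interval 0.0039 to 1.99, adjusted p = 0.319, DESeq2). Flt3 +11226, in intron 1, held normalized tags of 16.6, 7.18 and 17.9 in CD45.1 and 1.75, 3.92 and 8.31 in CD45.2 libraries (log2 fold change 1.49, 95% interval 0.18 to 2.79, adjusted p = 0.215, DESeq2) and passed with edgeR. Flt3 -8391 held normalized tags of 0, 1.3 and 0.944 in CD45.1 and 5.25, 1.74 and 10.7 in CD45.2 libraries, from 23 raw tags against 2, a ratio of 10.4 after scaling with an exact 95% counting interval of 2.56 to 90.6. Summed, Csf1 had 83.1 ± 15.1 normalized tags in graft-derived CD45.1 cells against 115 ± 12.2 in CD45.2 cells (SD, n = 3), with a log2 fold change of -0.47 that did not pass (95% interval -0.91 to -0.02, adjusted p = 0.26, DESeq2).

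Spi1 -80, the PU.1 promoter peak after LPS, held normalized tags of 60.6, 40.4 and 44.8 in CD45.1 and 43.8, 64.5 and 67.1 in CD45.2 libraries, which overlapped (log2 fold change -0.28, 95% interval -0.84 to 0.28, adjusted p = 0.75, DESeq2). The 4 Spi1 peaks gave -0.54 to 0.4, with a smallest adjusted p of 0.538 (DESeq2). The Csf1r intron 2 peak, Csf1r +3074, held normalized tags of 67.9, 74.4 and 61.8 in CD45.1 and 87.6, 93.3 and 74.8 in CD45.2 libraries. These did not overlap and did not pass (log2 fold change -0.32, 95% interval -0.78 to 0.14, adjusted p = 0.6, DESeq2). Csf1r +223, in the 5′ UTR, gave 0.12. The strongest peaks Csf2ra +1177, Csf2rb -75, Csf3r -5524 and Flt3 +37222 gave 0.13, 0.11, 0.17 and -0.15. The first-exon and promoter peaks Csf2ra -88, Csf2rb2 +18, Csf3r +13 and Csf1 +135 gave -0.29, -0.29, -0.69 and 0.19.

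Whether the difference between populations changed with LPS was tested on 24 peaks matched between the tables by overlap of at least 50% of both peaks. Of the 23 with a defined adjusted p, 0 passed (DESeq2 interaction, smallest adjusted p = 0.893, 1 at an unadjusted p under 0.05, 0 with edgeR), against 0.242% of 39235 matched peaks. The interaction was 0.11 (95% interval -0.98 to 1.2) for Csf1 -23001, -0.27 (95% interval -1.22 to 0.69) for Flt3 +100 and -0.13 (95% interval -0.72 to 0.46) for Spi1 -78. Intervals of this width do not show the differences to be equal.

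**Figure D4:**
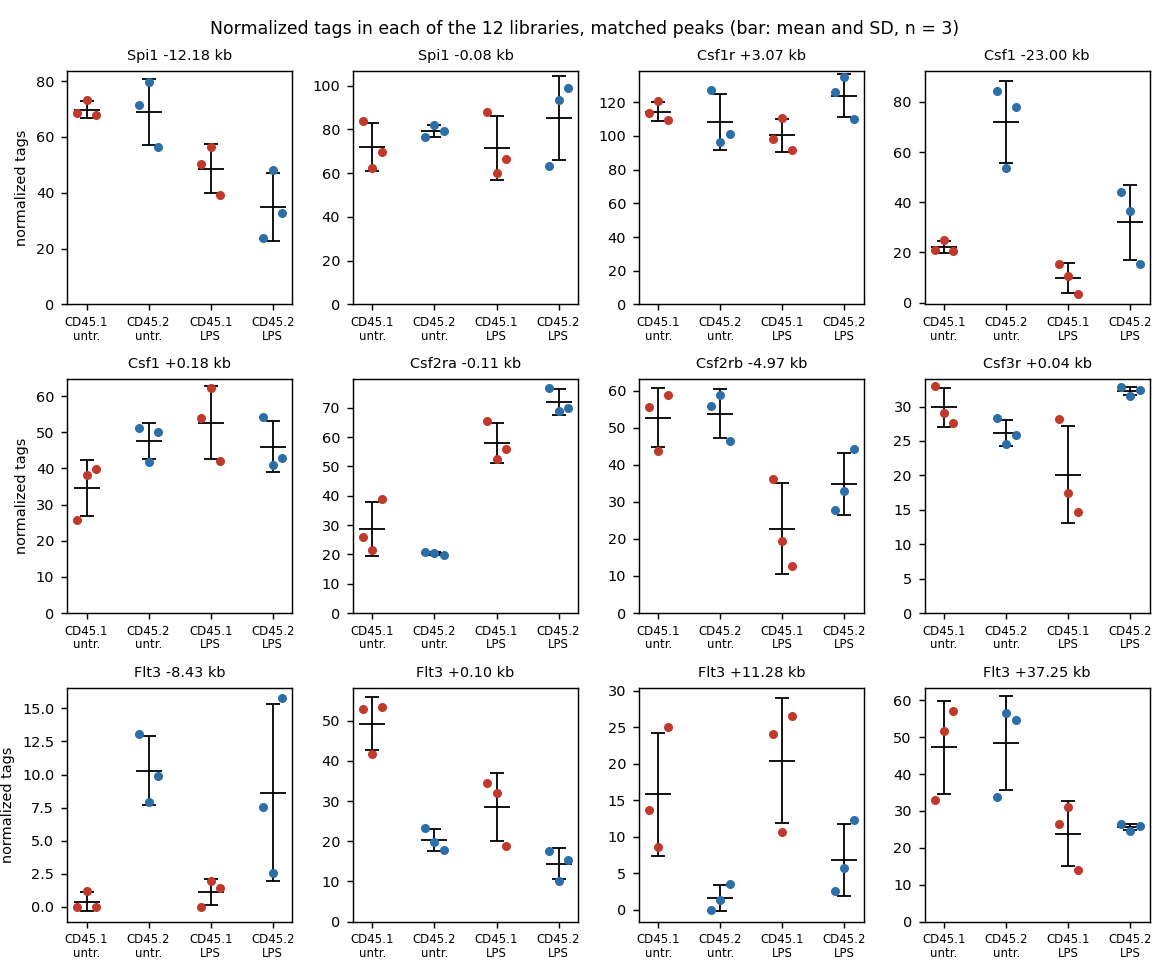
Normalized tags in each of the 12 libraries (points), on the common scale of the matched peaks, with mean and SD (n = 3) for both populations of untreated and LPS-treated mice. The 12 peaks are matched peaks that passed a test, or that lay nearest the TSS among the matched peaks of Spi1, Csf1r, Csf1 or Csf3r. Csf1 -23001 has the higher mean in CD45.2 cells and Flt3 +100 in CD45.1 cells under both treatments, and Csf2ra -108 is higher after LPS in both populations.

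LPS-treated and untreated mice were then compared within each population on the matched peaks. Treatment goes together with table, depth and peak merging, which cannot be told apart, and matched peaks were wider after LPS by a median of 0.29 on the log2 scale. In CD45.1 cells, 1 peak was higher and 3 were lower after LPS (DESeq2, adjusted p under 0.05 and over 2-fold), against 6.77% and 4.98% of all. In CD45.2 cells, 2 were higher and 1 was lower, against 7.68% and 3.7%. Per base of peak, the counts were 0 and 3 in CD45.1 cells, against 5.38% and 3.33% of all, and 2 and 0 in CD45.2 cells, against 6.14% and 2.26%.

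The promoter of Csf2ra, the GM-CSF receptor alpha chain, was higher after LPS. In CD45.2 cells, Csf2ra -108 held 20.7, 20.6 and 19.8 normalized tags in untreated and 76.9, 68.9 and 70 in LPS-treated mice, without overlap (log2 fold change 1.8 ± 0.27, SE, adjusted p = 3.13e-09, DESeq2). The peak was 105 bases wide in untreated and 189 in LPS-treated mice, and per base the value was 1.23 (adjusted p = 1.77e-04). In CD45.1 cells it held 25.8, 21.4 and 39.1 normalized tags in untreated and 65.6, 52.5 and 56 in LPS-treated mice, also without overlap (1.04 ± 0.27, SE, adjusted p = 0.00135, DESeq2). There the per-base value of 0.46 did not pass (adjusted p = 0.216), and the change was under 2-fold without CD45.1 replicate 1 (0.93), replicate 4 (0.97) or replicate 5 (0.86).

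Flt3 +11280 held 0, 1.32 and 3.57 normalized tags in untreated and 2.52, 5.69 and 12.3 in LPS-treated mice in CD45.2 cells, which overlapped (log2 fold change 2.17 ± 0.77, SE, adjusted p = 0.0315, DESeq2). This call was lost without CD45.2 replicate 3 (1.3), replicate 4 (1.8) or replicate 5 (1.88) and with scaling by total tags (1.98), and the value became 3.45 without CD45.2 replicate 6. Csf1 -23001 held 84.3, 53.5 and 78 normalized tags in untreated and 44.1, 36.6 and 15.3 in LPS-treated mice in CD45.2 cells (-1.24, adjusted p = 0.00279, DESeq2) and 20.9, 24.8 and 20.4 normalized tags in untreated and 15.2, 10.7 and 3.5 in LPS-treated mice in CD45.1 cells (-1.13, adjusted p = 0.04999, DESeq2). The LPS values were all lower, but the peak was 253 bases wide in untreated and 176 in LPS-treated mice. Per base neither passed, at -0.45 (adjusted p = 0.416) and -0.34 (adjusted p = 0.636). The call in CD45.2 cells was also lost without CD45.2 replicate 3 (-0.83), and that in CD45.1 cells without CD45.1 replicate 2, 3, 4, 5 or 6 or CD45.2 replicate 2, 4, 5 or 6, among which CD45.1 replicate 3 moved it most (-0.67). Without CD45.1 replicate 1 it was -1.72.

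Csf2rb -4972 was lower after LPS in CD45.1 cells, with 55.7, 43.8 and 58.8 normalized tags in untreated and 36.3, 19.4 and 12.6 in LPS-treated mice and no overlap (log2 fold change -1.17 ± 0.32, SE, adjusted p = 0.00277, DESeq2). Per base it was -1.03 (adjusted p = 0.00996), and it did not pass without CD45.1 replicate 3 (-0.85) and became -1.76 without CD45.1 replicate 1. In CD45.2 cells it gave -0.57 (adjusted p = 0.172), and the populations did not differ detectably in this change, with an interaction of -0.6 (95% interval -1.44 to 0.25). Flt3 +37248 held 33, 51.7 and 57 normalized tags in untreated and 26.4, 31.1 and 14 in LPS-treated mice in CD45.1 cells. Its log2 fold change was -1.02 in CD45.1 (adjusted p = 0.0158, DESeq2) and -0.95 in CD45.2 cells (adjusted p = 0.0254, DESeq2, under 2-fold), and -0.71 and -0.63 per base, which did not pass. Its call in CD45.1 cells was lost without CD45.1 replicate 3 (-0.74), replicate 5 (-0.95) or replicate 6 (-0.86). With scaling by total tags the calls in CD45.1 cells of Csf1 -23001 (-1.18, adjusted p = 0.134, DESeq2), Csf2rb -4972 (-1.2, adjusted p = 0.0517, DESeq2) and Flt3 +37248 (-1.06, adjusted p = 0.128, DESeq2) were lost. Per base only, Flt3 +100 (-1.1, adjusted p = 0.00401) and Csf3r +35 (-1.03, adjusted p = 0.0156) passed as lower after LPS in CD45.1 cells. By tags they gave -0.78 (adjusted p = 0.0569, DESeq2) and -0.55 (adjusted p = 0.241, DESeq2) and did not pass. These peaks were wider after LPS, 201 against 133 and 196 against 117 bases, which lowers the value per base.

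At the PU.1 gene, Spi1 -12180 held 71.3, 79.6 and 56.3 normalized tags in untreated and 24, 48 and 32.8 in LPS-treated mice in CD45.2 cells, lower after LPS by less than 2-fold (log2 fold change -0.91, adjusted p = 0.00462, DESeq2). This peak was 320 bases wide in untreated and 199 in LPS-treated mice, and per base the value was 0.05 (adjusted p = 0.935). The Spi1 promoter gave 0.02 in CD45.1 (95% interval -0.41 to 0.45) and 0.15 in CD45.2 cells (95% interval -0.26 to 0.56). The Csf1r intron 2 peak gave -0.2 (95% interval -0.55 to 0.16) and 0.2 (95% interval -0.15 to 0.55). None of these 4 passed.

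**Figure D5:**
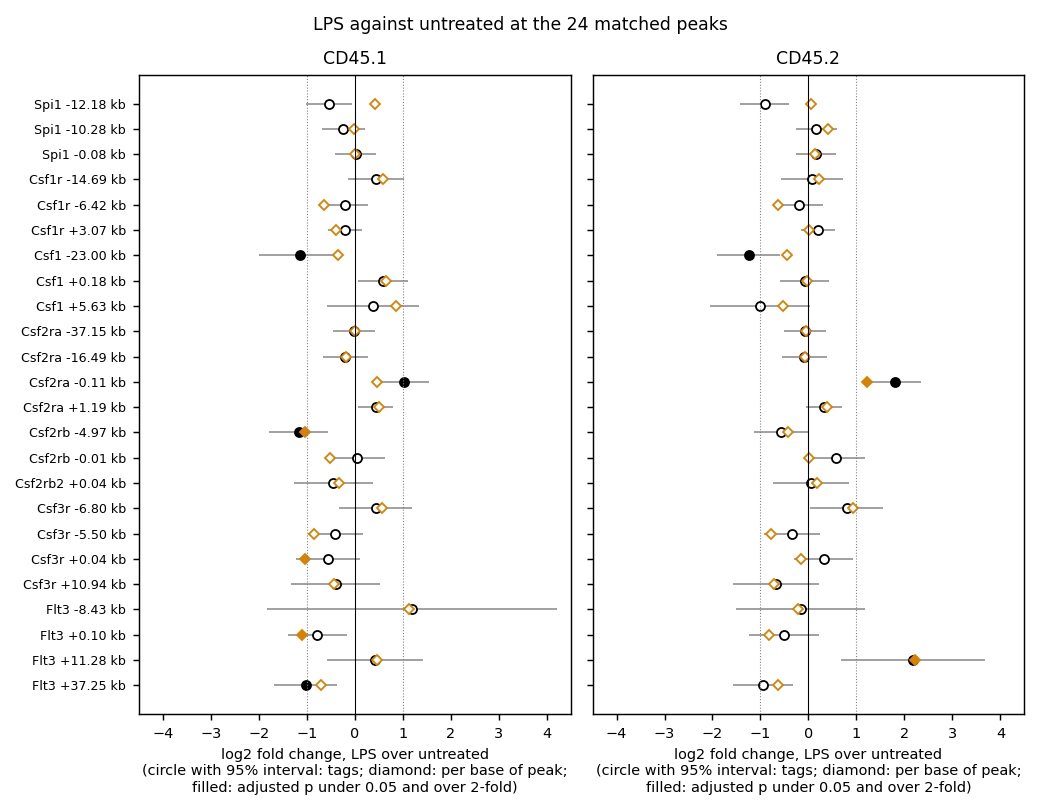
Log2 fold change of LPS-treated over untreated mice for 24 matched peaks in CD45.1 and CD45.2 cells, by tags (circles, 95% interval) and per base of peak (diamonds), filled where the adjusted p is under 0.05 and the change over 2-fold. Csf2ra -108 is filled on both measures in CD45.2 cells, at 1.8 and 1.23, and Csf1 -23001 by tags only.

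Other genes of these and related cytokine pathways were compared by the summed tags of their peaks. The first list held further CSF and FLT3 family ligands and receptors and also Tslp, Crlf2 and Il7r. The latter genes belong to TSLP and IL-7 signalling and not to the CSF or FLT3 families. Of 10 genes of this mixed list with a tested peak (Il3 and Kit had none), 3 were higher in CD45.1 and 0 in CD45.2 cells of untreated mice, against 7.35% and 7.46% of all genes. They were Crlf2, a TSLP receptor chain (548 ± 30.6 against 367 ± 12.6 tags, log2 fold change 0.58, adjusted p = 2.00e-06), Il3ra, the IL-3 receptor alpha chain (273 ± 25 against 190.1 ± 29.4 tags, log2 fold change 0.54, adjusted p = 0.00306), and Csf3, encoding G-CSF (146 ± 24.4 against 91.8 ± 12.2 tags, log2 fold change 0.66, adjusted p = 0.0072; SD, n = 3, DESeq2). The list's median was -0.05, beside -0.00096 over all genes. After LPS, 3 were again higher in CD45.1 and 0 in CD45.2 cells, against 4.08% and 2.98% of all genes, namely Il7r, the IL-7 receptor, at 1.02 (adjusted p = 0.00106), Crlf2 at 0.62 (adjusted p = 0.00678) and Il5ra, the IL-5 receptor alpha chain, at 1.36 (adjusted p = 0.0123), with a median of 0.42 beside -0.01.

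Of 17 relatives and partner factors of PU.1 with a tested peak (Spib had none), 2 were higher in CD45.1 and 3 in CD45.2 cells of untreated mice, beside the 7.35% and 7.46% of all genes. Spic, the PU.1 relative of red pulp macrophages (83.5 ± 22.4 against 11.8 ± 0.328 tags, log2 fold change 2.84, adjusted p = 9.43e-14; SD, n = 3, DESeq2), and Ets2 (log2 fold change 0.38, adjusted p = 0.002) were higher in CD45.1 cells. Gata2 (60.8 ± 19.5 against 181 ± 35.7 tags, log2 fold change -1.58, adjusted p = 1.72e-10) and Myb (164 ± 31 against 310.3 ± 13.7 tags, log2 fold change -0.91, adjusted p = 5.20e-08), factors of hematopoietic progenitors, were higher in CD45.2 cells (SD, n = 3, DESeq2). The third was Cebpe, a factor of granulocyte maturation, named here after its values were seen (log2 fold change -0.5, adjusted p = 0.0403, DESeq2). After LPS, Spic was higher in CD45.1 cells at 3.9 (adjusted p = 4.74e-09) and Gata2 in CD45.2 cells at -1.64 (adjusted p = 1.66e-05), against 4.08% and 2.98% of all genes. The medians were 0.02 and, after LPS, -0.15. Of 24 genes of CSF1R signalling, Gab2, an adaptor protein, was the single one to pass in untreated mice, where 7.35% of all genes were higher in CD45.1 cells (647 ± 75 against 433 ± 51.4 tags, log2 fold change 0.57, adjusted p = 3.75e-05; SD, n = 3, DESeq2), and 0 passed after LPS (DESeq2, 1 at an unadjusted p under 0.05, 0 with edgeR). The medians were 0.03 and -0.06.

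The genes whose summed matched peaks varied most like Spi1 over the 12 libraries were 4921536K21Rik (Pearson r = 0.946), Crlf3 (0.937) and Nsmce1 (0.934), and those most like Csf1r were Ints3 (0.801), Snn (0.797) and E230025N22Rik (0.793), among 9619 genes. The median r over all genes was -0.14 for Spi1 and 0.08 for Csf1r, and Spi1 and Csf1r had r = 0.019 with each other. These values describe libraries that share treatment, table and depth.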

How the data were processed

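ATAC-seq was analysed in 12 libraries, 3 per group. Per the submitters' processing notes the authors used bcl2fastq 2.17.1.14, Bowtie2, Picard 1.108 and HOMER with mm9. The deposited merged tables hold estimated counts of tags per peak (each mate counted as 0.5, not normalized), in tables merged separately for untreated and LPS-treated mice. The deposited peak lists of single libraries hold signal scaled by the authors to an equal library size and were used for presence only.

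Expected counts were rounded and tested with DESeq2 1.42.0 (R 4.3.3; the study's choice), CD45.1 against CD45.2, per table, over peaks with more than 10 tags in at least 1 library. Alternatives were edgeR 4.0.16 (quasi-likelihood), scaling by total tags, a mean of at least 20 tags, no filter, peaks within 100 kb, any overlap for matching, a replicate block and leaving out each library. A width offset was chosen after seeing the data. P-values are two-sided, Benjamini-Hochberg adjusted over all features, and scripts were tested on simulated data. Depth was 2966364 to 9107770 tags per library. Levels per gene are sums over its peaks, and correlations use log2(normalized tags + 1). The members and lists were chosen with earlier results of these data known. Peaks named are those nearest the TSS, the strongest per gene, those passing a test, and at most 4 genes per list by adjusted p; other peaks were named after their values were seen. Sequences and copies were read from the mm9 reference, and coordinates are as deposited.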

Additional observations from a re-analysis of the deposited data

Results flagged for a closer look

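At 3 matched peaks, the difference between CD45.1 and CD45.2 cells lay one way in every same-numbered pair of libraries of untreated mice and the opposite way in every such pair of LPS-treated mice, as it did for 2.26% of 39235 matched peaks. They were Csf2ra -108 at the promoter (interaction -0.77 on the log2 scale, unadjusted p = 0.0439, adjusted p = 0.893, DESeq2), Csf1 +5630 in an intron (1.4, unadjusted p = 0.0531, adjusted p = 0.911, DESeq2) and Csf3r +35 at the promoter (-0.87, unadjusted p = 0.0581, adjusted p = 0.925, DESeq2). None passed the test of the interaction over all matched peaks.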

How the results depend on the processing

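In untreated mice the 6 passing peaks became 10 with edgeR and 2 with a mean of at least 20 tags, where fewer peaks were tested, and 5 to 6 when a library was left out. The fit with the replicate block gave 6. The 2 passing gene sums became 1 with the replicate block, 0 with total tags and 1 to 2 when a library was left out. After LPS, 0 peaks became 2 with edgeR and 0 to 1 when a library was left out (1 without CD45.2 replicate 3). For LPS against untreated, the 4 peaks in CD45.1 cells became 1 with total tags and 1 to 4 when a library was left out, and the 3 in CD45.2 cells 1 to 4. The cause was not tested. Of 55 single values recomputed under the alternatives, none changed sign where the reported fit or the alternative called it. Spi1 -12180 in CD45.2 cells (LPS against untreated), under 2-fold and so not called, went from -0.91 to 0.05 per base of peak. Another 13, with an adjusted p of at least 0.05, changed sign under some alternative, such as the LPS sums of Csf2rb (-0.22 to 0.09 without CD45.1 replicate 3) and Csf3r (-0.03 to 0.2 without CD45.2 replicate 3). With the block the Flt3 sum (0.55, adjusted p = 0.0713, DESeq2) alone lost its call among the peaks and sums of Spi1 and the CSF system. Among the listed genes named, the calls of Csf3 (adjusted p = 0.0503), Cebpe (0.173) and, after LPS, Il5ra (0.122) and Crlf2 (0.127) were also lost. Of the markers called in untreated mice, it left 1 lymphocyte, 2 neuron, 1 astrocyte, 1 oligodendrocyte, 0 endothelium and 0 monocyte and neutrophil markers, and after LPS 0 lymphocyte, 2 neuron and 0 oligodendrocyte markers. Deviations of same-numbered libraries from their group means correlated at r = 0.081, 0.082 and 0.087 (replicates 4, 5 and 6) and -0.066, 0.061 and 0.149 (1, 2 and 3). Each untreated library correlated best with its own number, but libraries 1 and 2 of LPS-treated mice did not, a hint from the data and not from the design. Over all peaks of untreated mice, 5052 higher and 3737 lower in CD45.1 cells became 7225 and 6320 with edgeR, 3355 and 2169 with total tags, 3525 and 2414 with the block and 2453 and 1795 at a mean of 20. For genes, 1189 and 1206 became 384 and 391 with total tags and 775 and 817 with the block. After LPS, 2007 and 1171 peaks became 3617 and 2297 with edgeR, 1111 and 693 with the block and 611 and 334 at a mean of 20, and 642 and 469 genes became 315 and 279 with the block and 726 and 327 with total tags. Total tags moved the median of all LPS peaks from -0.0077 to 0.14. LPS-treated libraries were shallower, and the part of depth in their fewer calls was not tested.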

Other observations

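Peaks inside the bodies of these genes that the deposited annotation gave to another gene lay outside the rule, 10 in untreated and 8 in LPS-treated mice. In untreated mice 1 passed (adjusted p under 0.05, DESeq2), beside 8.54% of all peaks higher in CD45.1 and 6.32% higher in CD45.2 cells. It was a peak near the 3′ end of Csf1r (chr18:61291068-61291218, mm9), annotated to Mir6983, that held 10.5 ± 4.35 normalized tags in CD45.1 cells against 25.7 ± 2.89 in CD45.2 cells (SD, n = 3), with a log2 fold change of -1.28 ± 0.46 (SE, adjusted p = 0.0405, DESeq2). Its counterpart after LPS held 6.16 ± 1.93 and 10.9 ± 3.38 tags (SD, n = 3) and did not pass (adjusted p = 0.587, DESeq2). The strongest such peak in untreated mice lay in the span of Spi1 (chr2:90923173-90923289), was annotated to Slc39a13, and held 113.2 ± 24.4 and 102.8 ± 18.8 tags (SD, n = 3, log2 fold change 0.11, adjusted p = 0.855, DESeq2).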
